A study of Sus scrofa with 9 samples.

Results

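The messenger RNA levels of 40 cleavage and polyadenylation genes were described in porcine valvular interstitial cells (PVICs), the fibroblast-like cells that fill the aortic valve leaflet. The list is a set of gene symbols, drawn up with earlier results of these data known but with no measured value in its rule, and it holds the core factors that cut and tail a pre-mRNA together with RNA-binding proteins known to steer which poly-A site is used. Of the 40 genes, 39 had a row in the table of 19535 genes and all 39 were among the 13662 genes tested. RBBP6 was not analysed here. Cells were taken from wild type pigs and grown in 3 groups of 3 libraries each. The control group stayed in DMEM, the OIM group was kept in an osteogenic induction medium with sodium dihydrogen phosphate, ascorbic acid and insulin, and the bFGF group received the same OIM plus 50 ng/mL of basic fibroblast growth factor. The labels give 3 days of treatment for all groups, whereas the study's methods give a shorter time before RNA extraction, and which applies is not settled here. The labels do not say whether the 3 libraries of a group came from separate cultures or animals, so a p-value here measures only the spread between these libraries, which may be technical.

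The 3′ end of almost every mRNA is made in a pair of coupled steps. The cleavage and polyadenylation specificity factor (CPSF) reads the poly-A signal, usually AAUAAA, and cuts the RNA downstream of it, and a poly-A polymerase then adds the tail. The cleavage stimulation factor (CstF) binds U-rich or GU-rich sequence after the cut, cleavage factor I (CFIm) binds UGUA motifs before it, and cleavage factor II (CFIIm) links cutting to the end of transcription. Many genes carry more than 1 poly-A site, and the amounts of these factors are known in other cells to shift which site is used. Gene counts do not separate one 3′ end from another, so poly-A site choice itself was not analysed here.

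Total gene counts ran from 57075793 to 64723837 in control, from 57682710 to 67371523 in OIM and from 46773376 to 48270827 in bFGF libraries. The least counted member in any library held 591 counts and the most counted 57329. Levels are given as CPM, the count of a gene divided by the library size and set to a common scale, with library sizes corrected by the trimmed mean of M-values (TMM). The libraries carried high levels of mesenchymal markers, at a summed 62292 to 67421 CPM in control, 58987 to 62210 in OIM and 35543 to 35892 in bFGF for the 8 genes listed. Of the 8, 4 were called lower in bFGF than in OIM, led by COL1A1 and COL1A2, and 2 higher. Endothelial markers summed to 19.4 to 22.1, 19.0 to 20.6 and 30.1 to 33.4 CPM in the same order, and 4 of 6 were called higher in bFGF than in OIM. Leukocyte markers summed to at most 2.94 CPM with CD3E at 0, and cardiomyocyte markers to at most 0.670 CPM with TNNT2 and NPPA at 0. The 13 proliferation markers with a row summed to 603 to 624 CPM in control and 2349 to 2435 CPM in bFGF, and all 13 were called higher in bFGF than in OIM. They summed to 652 and 639 CPM in OIM libraries 1 and 3 but to 884 CPM in OIM library 2, where each of the 13 was the highest of the OIM group. The part of these cell type and proliferation differences in the results below was not tested. In bulk RNA, a change in the share of cells that use a gene and a change of RNA per cell cannot be told apart.

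Per kilobase of merged exons, the members spanned a wide range of levels. PABPC1, the main cytoplasmic poly-A binding protein, stood highest in each group, at 178 ± 1.83 CPM per kilobase in control, 197 ± 6.82 in OIM and 252 ± 5.12 in bFGF (SD, n = 3). WDR33, the CPSF subunit that contacts the poly-A signal, stood lowest in control and OIM, at 3.10 ± 0.0947, 2.96 ± 0.155 and 3.38 ± 0.103 CPM per kilobase. In bFGF the lowest was CELF2, at 2.96 ± 0.0408 CPM per kilobase. The highest member held 57.5 times the level of the lowest in control, 66.6 times in OIM and 85.1 times in bFGF. The median level per kilobase of the members was 16.5 in control, 16.0 in OIM and 16.6 in bFGF, beside 5.59, 5.68 and 5.92 for all genes tested. Next to PABPC1 in the control order came HNRNPH1, PABPN1, ELAVL1 and PTBP1, and next to WDR33 came PAPOLG, CPSF4, CELF2 and CSTF2. Between neighbours in this order, the 3 libraries of one gene lay wholly above those of the next in 17 of 38 steps in control, 19 in OIM and 28 in bFGF, and the other steps did not differ beyond their spread. A merged exon length counts every annotated isoform, which gives WDR33 18138 bases, and whether all of these are transcribed in PVICs was not tested.

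**Figure D1:**
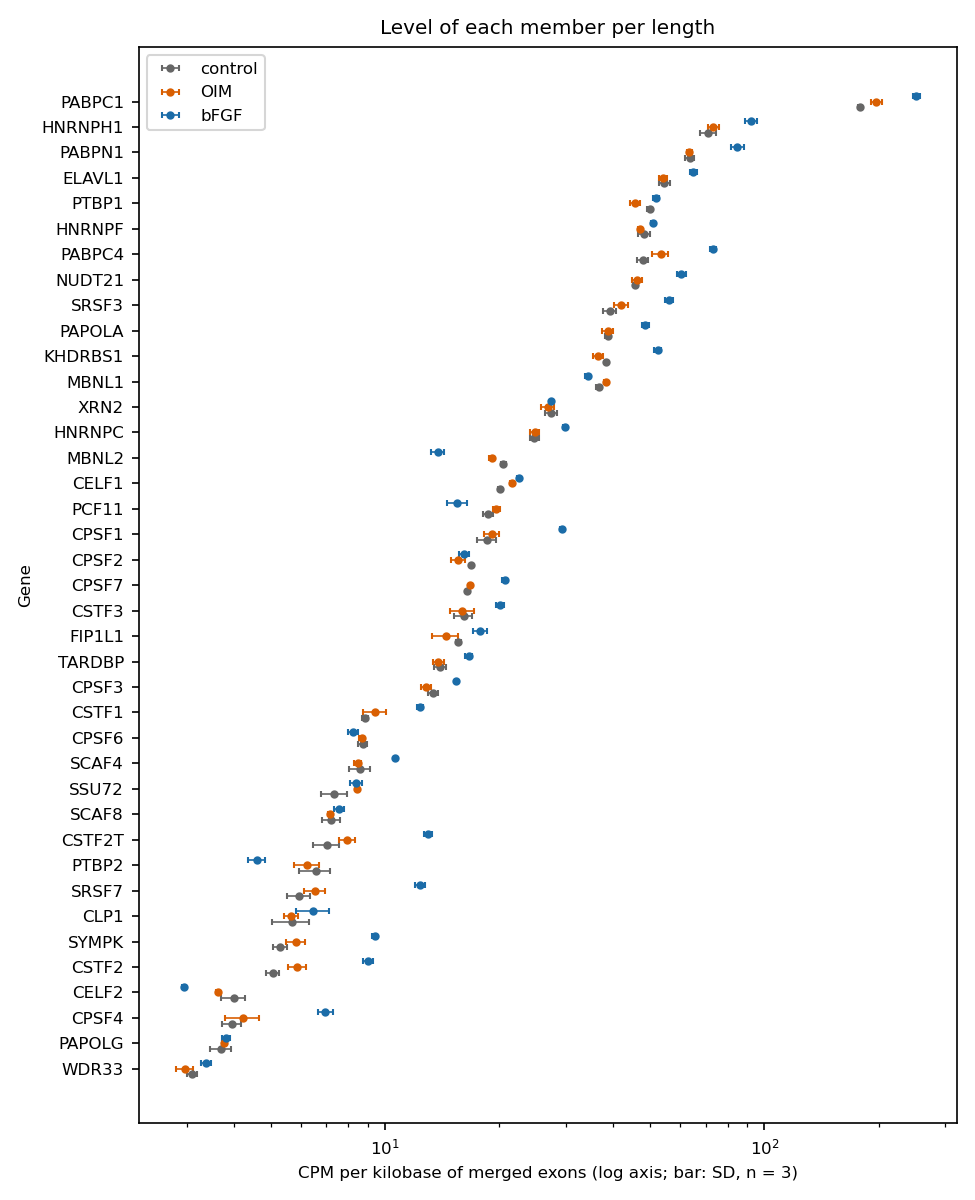
CPM per kilobase of merged exons on a log axis for the 39 members, ordered by their control mean, with points for the group means and bars for the SD (n = 3). PABPC1 lies far to the right of all others (178 in control, 252 in bFGF) and WDR33 lies lowest in control and OIM and CELF2 in bFGF, while SRSF7, SYMPK, CSTF2 and CPSF4 sit in the lower part of the order with bFGF points to the right of the other groups.

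Most of the members carry, near their annotated gene end, the letters of a signal that the CPSF subunits among them read, as do most genes. In the last 50 bases before the annotated end of the gene (RefSeq annotation of Sscrofa11.1), AATAAA was found in 23 of 39 members (59.0%), beside 58.5% of 13638 genes tested. The variant ATTAAA without AATAAA was found in 8 members (20.5%, against 13.1%), and 8 had neither (20.5%, against 28.4%). Both hexamers were searched on the gene's own strand only, and a match is a description of these letters, not of a used site. The windows below are shown for some of the CPSF, CstF, CFIIm, poly-A binding protein and regulator genes whose levels the results turn on, 5′ to 3′ as DNA with the hexamer in capitals.
CPSF4 (chr3:6388626-6388655, + strand): tttatgaagttgATTAAAgcttgtttttta
CSTF2 (chrX:82540836-82540861, + strand): cattaattctttAATAAAtttttatt
CSTF2T (chr14:98109440-98109469, + strand): tgatgcagactaAATAAAaaggatatacaa
PCF11 (chr9:17324683-17324712, + strand): attcacacatgtAATAAAtagaatgatgat
PABPC4 (chr6:95382303-95382332, - strand): agtcttaagtttAATAAAgaaaaaaaatct
SRSF7 (chr3:101608754-101608783, + strand): ttggcacatttaAATAAAatgtttctaact
SRSF3 (chr7:32298619-32298648, + strand): tgatagtgttgaATTAAAttttatgtccac
PTBP2 (chr4:120961218-120961247, - strand): ctttataccataAATAAAtctagatgctgt
MBNL2 (chr11:66641619-66641648, + strand): tacaaccaatgaAATAAAagaagcatttaa
KHDRBS1 (chr6:88572431-88572460, + strand): actgagatactcAATAAAgtttcagttaag
Of the 11 members called in at least 1 comparison below, CPSF1 had neither hexamer in this window, CPSF4 and SRSF3 had ATTAAA, and the other 8 had AATAAA.

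OIM against control asks what the calcifying medium alone did to these genes. A member is named as called where it passed both limits of the study's methods, namely an adjusted p no higher than 0.05 and a log2 fold change of 0.5 or more in either direction. The p-values come from the edgeR quasi-likelihood F test, with the Benjamini-Hochberg method applied across all 13662 genes. None of the 39 members was called. In the background of all genes, 1.49% were called higher and 0.864% lower. All 39 fold changes lay between -0.14 and 0.22 on the log2 scale, and all 39 of the 95% intervals lay inside the fold limit, the widest bound being 0.33 from 0. The median log2 fold change was -0.0013 over members and -0.0019 over all genes, and the median absolute value 0.065 against 0.108. At the adjusted p alone, 4 members rose (10.3%) and 1 fell (2.56%), against 7.69% and 5.87% of all genes, so the members were near the background. At an unadjusted p of 0.05 or less there were 14 members (35.9%) in either direction, beside 26.2% of all genes, and DESeq2 also called 0.

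The 5 small changes were as follows. PABPC1 had 747, 747 and 734 CPM in control and 817, 851 and 795 in OIM libraries, and rose by 0.15 ± 0.033 (SE, log2; edgeR adjusted p = 0.0057). PABPC4, a second cytoplasmic poly-A binding protein, had 165, 174 and 163 CPM in control and 185, 195 and 178 in OIM and rose by 0.15 ± 0.040 (edgeR adjusted p = 0.0128). CSTF2, the CstF subunit that binds RNA, had 23.4, 22.6 and 24.5 CPM in control and 26.3, 29.1 and 26.5 in OIM and rose by 0.22 ± 0.061 (edgeR adjusted p = 0.0227). The 2 groups did not overlap in any of these 3 genes. CELF1, which binds GU-rich sequence, had 179, 176 and 177 CPM in control and 191, 193 and 188 in OIM and rose by 0.10 ± 0.033 (edgeR adjusted p = 0.043). PTBP1, a pyrimidine-tract binding splicing repressor, had 332, 335 and 327 CPM in control and 295, 312 and 303 in OIM and fell, at -0.13 ± 0.034 (edgeR adjusted p = 0.0158). The OIM and control libraries did not overlap in either. When each of the 9 libraries was left out in turn, the adjusted p stayed at or below 0.05 in all 9 fits for PABPC1, in 7 for PABPC4 and for PTBP1, in 6 for CSTF2 and in 0 for CELF1. Without control library 1, PABPC1 was the only member that passed. Over the 39 members, the OIM libraries lay wholly above the control in 10 and wholly below in 5, beside 14.5% and 14.2% of all genes.

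bFGF against OIM asks what the growth factor did within the calcifying medium. At both thresholds 7 of 39 members were called higher (17.9%) and 0 lower, beside 17.7% of all genes called higher and 18.4% called lower. The share called higher was at the background, and DESeq2 called 7 higher and 0 lower. The 7 were SRSF7, CPSF4, CSTF2T, SYMPK, CSTF2, CPSF1 and KHDRBS1. At the adjusted p alone, 26 members rose (66.7%) and 5 fell (12.8%), beside 33.8% and 33.5% of all genes. The 5 that fell were MBNL2, PTBP2, PCF11, CELF2 and MBNL1, of which CELF2 and MBNL1 did not pass with library totals alone. The median log2 fold change was 0.27 over the members and -0.0029 over all genes. All 3 bFGF libraries lay above all 3 OIM libraries in 28 members and below them in 6, beside 36.3% and 35.8% of all genes. The same 7 members were called when any 1 of the 9 libraries was left out, and without OIM library 2 PABPC4 joined them at 0.51 (edgeR adjusted p = 4.32e-13) to make 8.

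The scale of the libraries mattered here. TMM factors were 1.10 to 1.11 in bFGF and 0.937 to 0.967 in the other libraries, and with library totals alone the median of all genes moved up by 0.22 (bFGF against OIM). With those totals 19 members were called higher (48.7%) and 0 lower, beside 27.3% and 12.4% of all genes, while the part of all called genes that were higher moved from 49.0% to 68.8%. At the adjusted p alone, 34 members then rose (87.2%) and 3 fell (7.69%), namely MBNL2, PTBP2 and PCF11, beside 49% and 21.7% of all genes. The 8 members that had not passed with TMM, CPSF2, CLP1, CPSF6, SCAF8, XRN2, SSU72, PAPOLG and CELF1, were all higher. MBNL1 changed sign, at 0.062 (edgeR adjusted p = 0.119), as did CPSF6 and SSU72, and CELF2 kept a negative value. With size factors by median of ratios and with DESeq2 the counts were 26 higher and 5 lower, as with TMM. Directions below are relative to TMM scaling.

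bFGF against control sets the same bFGF libraries against plain medium, so it shares them with the comparison above and is no separate evidence of what bFGF did. In it 8 members were called higher (20.5%) and 2 lower (5.13%), beside 18.9% and 20% of all genes. With library totals alone the counts were 18 higher (46.2%) and 0 lower, beside 28.8% and 13.5% of all genes. At the adjusted p alone 26 rose and 5 fell, beside 34.5% and 35.7%. Under library totals these were 35 (89.7%) and 3 (7.69%), beside 48.8% and 23% of all genes, with PCF11 not past the threshold and MBNL1 higher. The bFGF libraries lay wholly above control in 28 members and wholly below in 7, beside 36.4% and 37.3% of all genes. The median log2 fold change was 0.26 over members and -0.016 over all genes. Of the 10 called, SRSF7, CSTF2T, CSTF2, SYMPK, CPSF4 and CPSF1 were also called against OIM, and PABPC4, SRSF3, MBNL2 and PTBP2 were called here alone. Their values stand with their groups below.

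**Figure D2:**
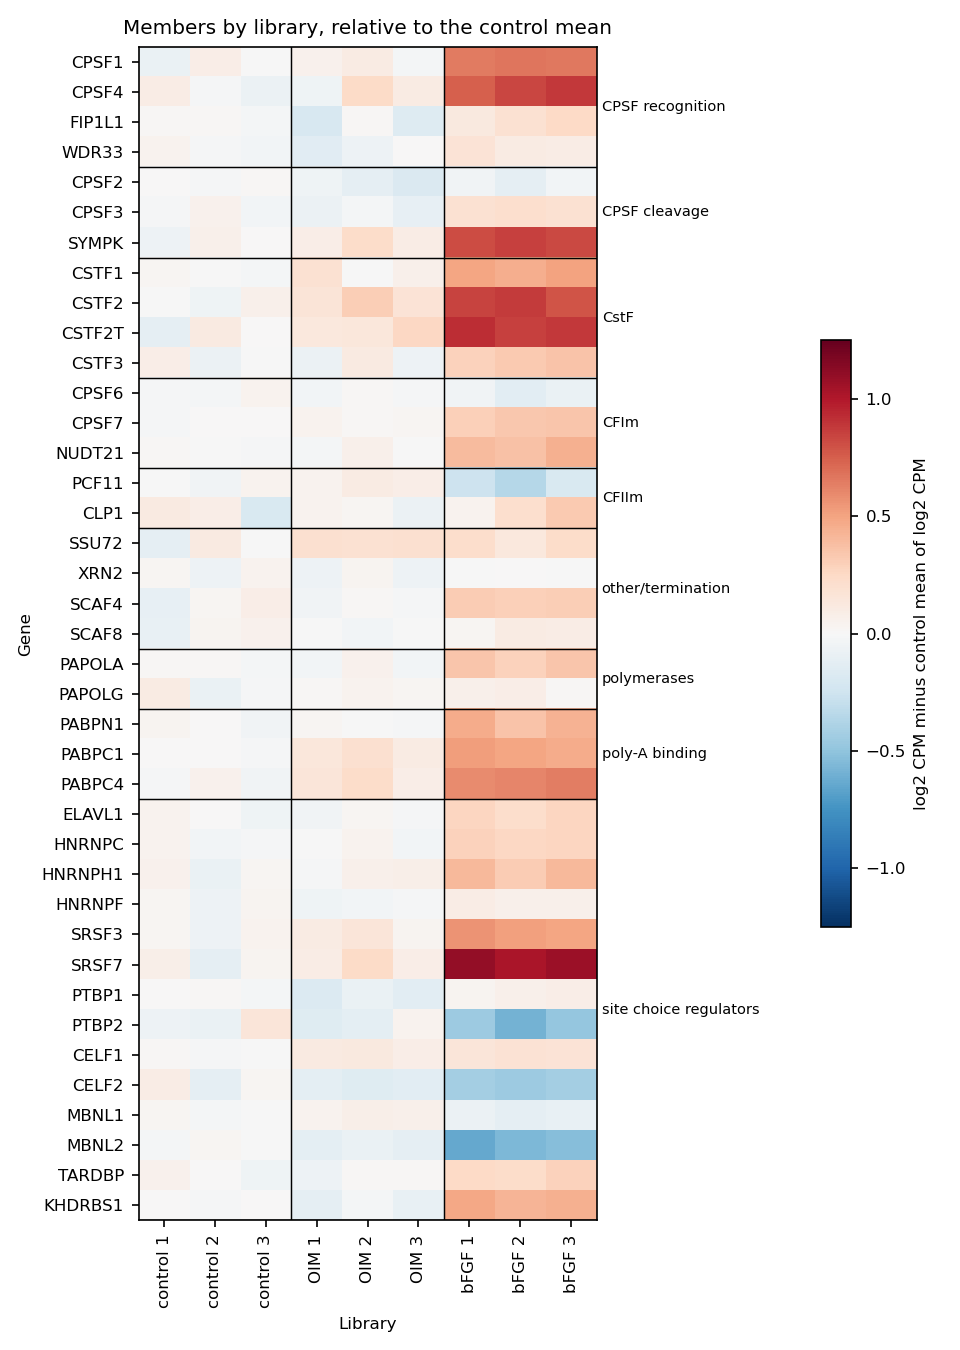
Log2 CPM of the 39 members in each of the 9 libraries minus the mean log2 CPM of the control libraries, with genes in rows by role and libraries in columns (red, higher; blue, lower). The OIM columns are pale throughout, and the bFGF columns are red in most core factors, deepest in SRSF7, CSTF2T, CSTF2, SYMPK and CPSF4, and blue in PCF11, PTBP2, CELF2 and MBNL2.

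**Figure D3:**
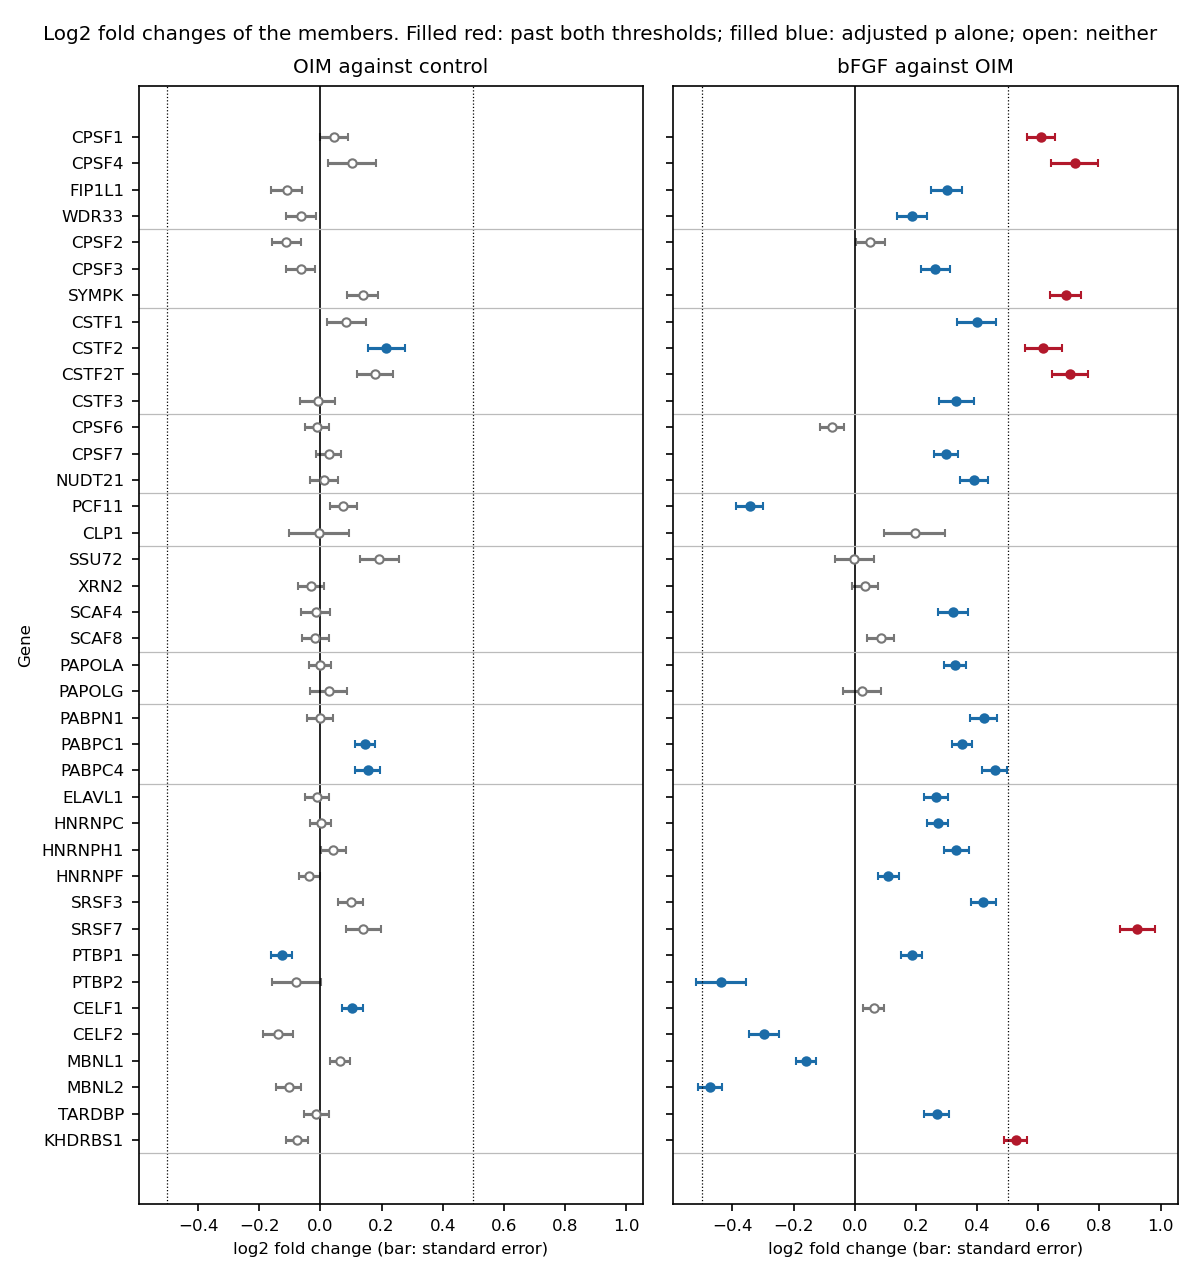
Log2 fold changes (points) with standard errors (bars) of the 39 members for OIM against control and bFGF against OIM, dotted lines at the fold limit of 0.5. Values stay between -0.14 and 0.22 for OIM against control and run from -0.47 (MBNL2) to 0.92 (SRSF7) for bFGF against OIM, where 7 members lie past both thresholds.

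All 4 CPSF subunits that recognise the poly-A signal rose with bFGF, and CPSF1 and CPSF4 were called. Beside these and the counts of the other complexes stand the shares for bFGF against OIM over all genes, of which 33.8% rose, 33.5% fell and 17.7% were called higher. CPSF1 (chr4:382887-393732), the large scaffold of the complex, had 79.2, 88.8 and 83.7 CPM in control, 86.9, 90.1 and 82.4 in OIM and 131, 133 and 132 in bFGF libraries. The bFGF libraries lay above the 6 others, which overlapped among themselves. Its log2 fold change was 0.61 ± 0.046 against OIM (SE; edgeR adjusted p = 2.96e-10) and 0.65 ± 0.046 against control. CPSF4 (chr3:6374346-6388662), a zinc finger subunit that contacts the signal, had 18.6, 17.3 and 16.5 CPM in control, 16.8, 20.7 and 18.7 in OIM and 29.4, 31.1 and 32.1 in bFGF. Again only the bFGF group stood apart, by 0.72 ± 0.077 against OIM (edgeR adjusted p = 7.36e-08) and 0.82 ± 0.078 against control. WDR33, the other subunit that contacts the signal, had 58.1, 55.8 and 54.8 CPM in control, 50.9, 53.8 and 56.5 in OIM and 63.4, 60.3 and 60.0 in bFGF. It rose less, by 0.19 ± 0.049 against OIM (edgeR adjusted p = 0.00215). FIP1L1, which tethers the poly-A polymerase, rose by 0.30 ± 0.051 (edgeR adjusted p = 2.98e-05). The 4 subunits of this module thus spanned 0.19 to 0.72 on the log2 scale.

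The cleavage module changed unevenly. SYMPK (chr6:52135580-52180382), the symplekin scaffold, had 40.5, 44.3 and 42.7 CPM in control, 45.0, 49.9 and 45.4 in OIM and 74.6, 76.7 and 75.2 in bFGF. All bFGF libraries lay above all OIM libraries, which in turn lay above control. SYMPK was called higher in bFGF by 0.69 ± 0.051 against OIM (edgeR adjusted p = 2.33e-10) and by 0.83 ± 0.051 against control, and did not pass for OIM against control (edgeR adjusted p = 0.084). In the annotation SYMPK shares 745 exon bases with RSPH6A on the same strand, so 11.9% of its 100-base windows do not tell them apart. CPSF3, the endonuclease that makes the cut, had means of 44.4 ± 1.29 CPM in OIM and 53.3 ± 0.406 in bFGF and rose by 0.26 ± 0.047 (edgeR adjusted p = 5.53e-05). CPSF2, its inactive partner, had means of 49.4 ± 2.22 and 51.1 ± 1.43 CPM, and the difference of 0.051 (95% interval -0.043 to 0.14) did not pass (edgeR adjusted p = 0.363).

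All 4 CstF genes rose with bFGF, and both forms of the RNA-binding subunit were called, beside 33.8% of all genes that rose and 17.7% called higher. CSTF2 (chrX:82508739-82540861) had 42.0, 42.9 and 40.5 CPM in bFGF libraries, above the OIM and control values already given. It was higher by 0.62 ± 0.060 against OIM (edgeR adjusted p = 1.69e-08) and by 0.83 ± 0.061 against control, so its 3 groups stood in the order control, OIM, bFGF without overlap. CSTF2T (chr14:98104957-98109479), its autosomal paralogue, had 29.2, 34.2 and 31.8 CPM in control, 34.8, 35.0 and 38.0 in OIM and 60.0, 57.2 and 58.6 in bFGF. The groups again did not overlap, and CSTF2T was higher by 0.70 ± 0.059 against OIM (edgeR adjusted p = 1.69e-09) and 0.88 ± 0.059 against control, while OIM against control missed the threshold (edgeR adjusted p = 0.0529). No 100-base window was shared between the merged exons of the paralogues. CSTF1 rose by 0.40 ± 0.064 and CSTF3, the scaffold, by 0.33 ± 0.057 against OIM, both below the fold limit (edgeR adjusted p = 1.43e-05 and 3.29e-05). In CSTF1, 206 of 2517 exon bases lie opposite exons of AURKA, and in CSTF2, 198 of 4643 lie opposite exons of NOX1. The strand setting of the counting is not known, so reads could be mixed here, which was not tested.

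In CFIm, the UGUA-binding subunit and 1 of its 2 partners rose. NUDT21, which binds UGUA, had means of 48.9 ± 1.43 CPM in OIM and 64.1 ± 1.62 in bFGF and rose by 0.39 ± 0.045 (edgeR adjusted p = 2.11e-07). CPSF7 had 62.5, 63.1 and 63.3 CPM in control, 65.0, 63.5 and 64.1 in OIM and 77.6, 79.5 and 79.8 in bFGF, and rose by 0.30 ± 0.040 (edgeR adjusted p = 1.57e-06). CPSF6, the alternative partner of NUDT21, had 114, 113 and 118 CPM in control, 112, 116 and 114 in OIM and 112, 105 and 108 in bFGF. Its bFGF libraries lay just below the OIM libraries, and the difference of -0.074 (95% interval -0.15 to 0.0026) did not pass (edgeR adjusted p = 0.102). With library totals alone CPSF6 turned to 0.15 and passed as higher (edgeR adjusted p = 0.00439), as it did against control at 0.14 (edgeR adjusted p = 0.00646). Of the exons of CPSF7, 2248 of 3822 bases lie opposite exons of SDHAF2 and TMEM216. Whether the counting used strand is not given in the sources used here, so reads of these genes could be mixed. The same limit holds for FIP1L1 (760 of 5342 bases, opposite LNX1), TARDBP (1597 of 8151, opposite MASP2) and PTBP1 (485 of 6652, opposite PLPPR3). In all, 12 members had exon bases in another gene.

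CFIIm was the 1 core complex with a gene that fell. PCF11, which binds the polymerase II tail and promotes termination, had 117, 114 and 120.5 CPM in control, 120.2, 126 and 123 in OIM and 97.4, 91.1 and 102 in bFGF. All bFGF libraries lay below the 6 others, at -0.34 ± 0.044 against OIM (edgeR adjusted p = 9.25e-07) and -0.27 ± 0.044 against control (edgeR adjusted p = 1.95e-05), both inside the fold limit. With library totals alone the values were -0.12 and -0.045, the latter no longer past the threshold (edgeR adjusted p = 0.413). CLP1, its partner and an RNA kinase, had 11.7, 11.5 and 10.7 CPM in OIM and 11.6, 13.1 and 14.2 in bFGF, which overlapped, and did not pass (edgeR adjusted p = 0.0873). CLP1 was the least abundant member by counts and its error was the widest, at ± 0.099 (SE, log2).

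Among the other core and termination genes, SCAF4 was the only 1 of 4 that passed against OIM with TMM scaling, while with library totals alone all 4 passed as higher, by 0.22 (SSU72) to 0.54 (SCAF4). SCAF4 and SCAF8 are related proteins that bind the polymerase II tail and restrain early poly-A sites. SCAF4 had 53.8, 59.0 and 61.1 CPM in control, 56.2, 58.6 and 57.2 in OIM and 72.1, 71.4 and 71.6 in bFGF, and rose by 0.32 ± 0.048 (edgeR adjusted p = 7.05e-06). SCAF8 had 83.2, 90.6 and 92.1 CPM in control, 88.2, 86.4 and 88.4 in OIM and 89.9, 94.9 and 94.2 in bFGF, a difference of 0.085 that did not pass against OIM (edgeR adjusted p = 0.0955). XRN2, the exonuclease that chases the polymerase after the cut, differed by 0.033 (95% interval -0.049 to 0.12) and SSU72, a phosphatase of the polymerase tail, by -0.0014 (95% interval -0.13 to 0.12). SSU72 was higher in bFGF than in control by 0.19 ± 0.064 (edgeR adjusted p = 0.0122), and its OIM libraries lay at the bFGF level.

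The tail-making and tail-binding genes followed. PAPOLA, the main nuclear poly-A polymerase, had 221, 222 and 216 CPM in control, 215, 228 and 215 in OIM and 279, 268 and 278 in bFGF, and rose by 0.33 ± 0.036 (edgeR adjusted p = 1.01e-07). PAPOLG, its paralogue, had 28.9, 25.5 and 26.8 CPM in control, 27.3, 27.9 and 27.4 in OIM and 28.2, 28.6 and 27.3 in bFGF, all groups overlapping, with a difference of 0.025 (95% interval -0.096 to 0.15). The 3 poly-A binding protein genes all rose. PABPN1, which coats nuclear tails and sets their length, rose by 0.42 ± 0.043 (edgeR adjusted p = 3.58e-08). PABPC1 reached 1069, 1046 and 1026 CPM in bFGF, 0.35 ± 0.034 above OIM (edgeR adjusted p = 1.31e-08) and 0.50 ± 0.034 above control, where it lay just inside the fold limit. PABPC1 was called there with DESeq2 and with size factors by median of ratios (0.50 in both), in the fit of the 2 groups alone (0.51), with library totals (0.72) and without OIM library 2 (0.51) or bFGF library 3 (0.51). PABPC4 (chr6:95382295-95399452) reached 251, 255 and 260.1 CPM, 0.46 ± 0.040 above OIM (edgeR adjusted p = 3.56e-09) and 0.61 ± 0.040 above control, where it was called. For both cytoplasmic proteins the groups stood in the order control, OIM, bFGF with no overlap.

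**Figure D4:**
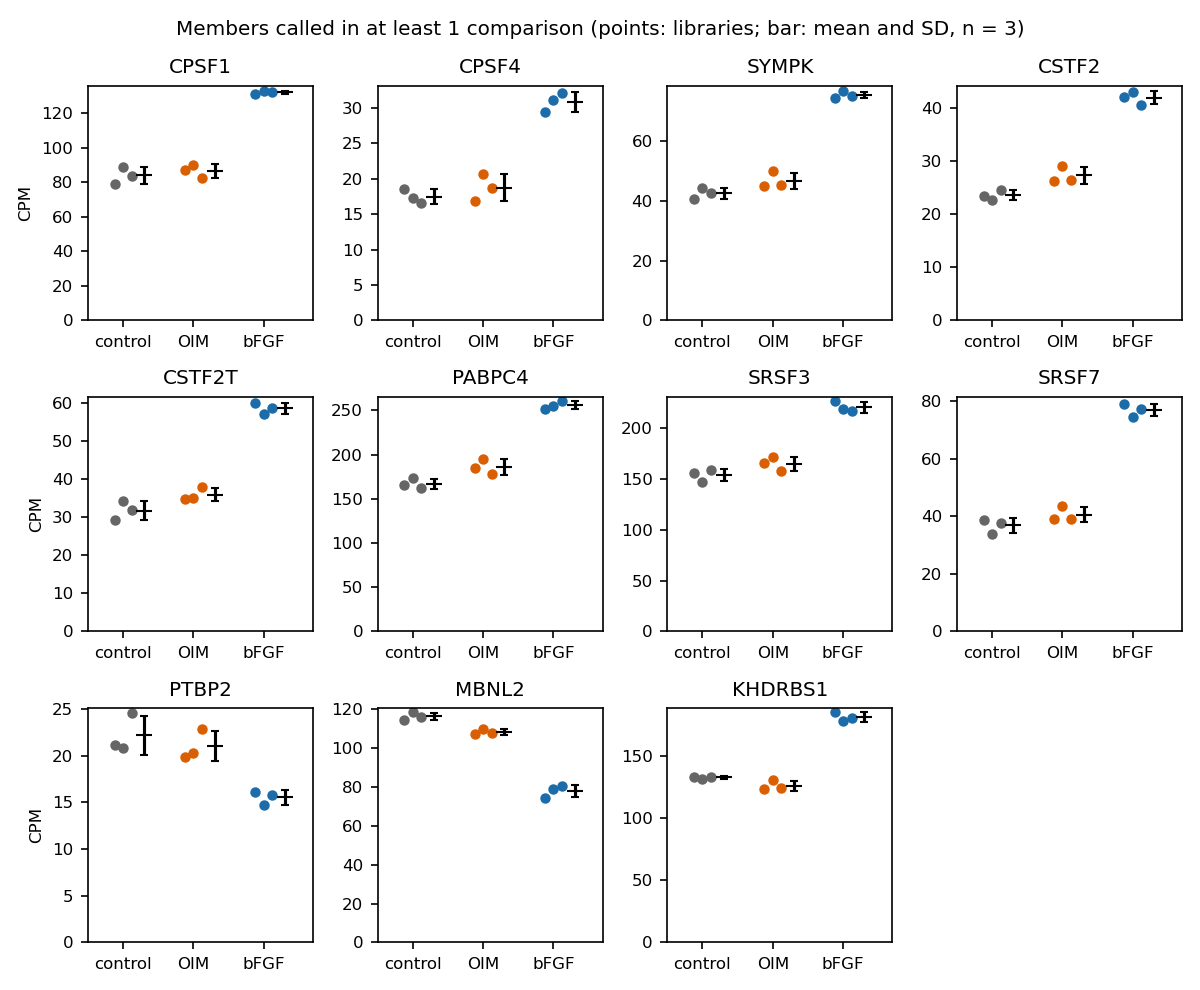
CPM in each library (points) with the group mean and SD (bars, n = 3) for the 11 members called in at least 1 comparison, each axis from 0. The bFGF points lie above all others in 9 genes, with SRSF7 at 74.6 to 78.9 CPM against at most 43.5 elsewhere, and below all others in PTBP2 and MBNL2.

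Of the 14 RNA-binding regulators there were 9 that rose, 4 that fell (CELF2 and MBNL1 among them not with library totals alone) and 1 that did not pass for bFGF against OIM, beside 33.8% of all genes that rose and 33.5% that fell. SRSF7 (chr3:101599429-101608786), an SR protein that acts in splicing and in site choice, had 38.8, 34.0 and 37.8 CPM in control, 39.1, 43.5 and 39.1 in OIM and 78.9, 74.6 and 77.5 in bFGF. It carried the largest change of all 39 members, 0.92 ± 0.057 against OIM (edgeR adjusted p = 1.53e-11) and 1.06 ± 0.057 against control. SRSF3 (chr7:32289464-32298652), its relative, had 156, 148 and 159 CPM in control, 166, 172 and 158 in OIM and 227, 219 and 217 in bFGF. The bFGF libraries lay above all others, by 0.42 ± 0.040 against OIM (edgeR adjusted p = 1.41e-08) and 0.52 ± 0.040 against control. The latter call sat at the fold limit and was lost without control library 2 (0.49) and without bFGF library 1 (0.50, just under the limit). Of the 3942 exon bases of SRSF3, 2576 lie opposite LOC102161912.

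KHDRBS1 (chr6:88530364-88572467), the signalling-regulated protein Sam68, had 133, 132 and 134 CPM in control, 123, 131 and 125 in OIM and 186, 178 and 181 in bFGF. It was called against OIM, at 0.53 ± 0.037 (edgeR adjusted p = 1.16e-10), and rose against control by 0.45 ± 0.037 without reaching the fold limit. Its OIM libraries lay below its control libraries, as in 14.2% of all genes, and that difference of -0.076 did not pass (edgeR adjusted p = 0.201). HNRNPH1, which binds G-rich sequence, had 297, 271 and 291 CPM in control, 283, 299 and 301 in OIM and 379, 356 and 378 in bFGF and rose by 0.33 ± 0.041 against OIM (edgeR adjusted p = 4.89e-07). HNRNPF, its close relative, had 301, 285 and 304 CPM in control, 286, 289 and 293 in OIM and 316, 309 and 311 in bFGF and rose by only 0.11 ± 0.035 (edgeR adjusted p = 0.00936). The U-rich or UG-rich binders ELAVL1, HNRNPC and TARDBP rose by 0.26, 0.27 and 0.27, with SEs of 0.039, 0.035 and 0.040. PTBP1 reached 338, 346 and 351 CPM in bFGF and rose by 0.19 ± 0.034 against OIM (edgeR adjusted p = 7.23e-05), but its difference from control, 0.059, did not pass (edgeR adjusted p = 0.13). CELF1 reached 197, 200.5 and 199 CPM, and its difference from OIM, 0.061 (95% interval -0.0041 to 0.13), did not pass.

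The 4 regulators that fell were MBNL2, PTBP2, CELF2 and MBNL1 (the last 2 not with library totals alone), of which the MBNL and CELF proteins are known for their part in muscle and brain splicing and PTBP2 as the neuronal form of PTBP1. MBNL2 (chr11:66481923-66641653) had 115, 118 and 116 CPM in control, 107, 109.9 and 108 in OIM and 74.5, 78.8 and 80.6 in bFGF. The groups stood in descending order without overlap, at -0.47 ± 0.040 for bFGF against OIM (edgeR adjusted p = 2.31e-09) and -0.58 ± 0.040 against control (edgeR adjusted p = 9.34e-11), where it was called. The latter was -0.35 and no longer called with library totals alone. PTBP2 (chr4:120961211-121041876) had 21.1, 20.9 and 24.6 CPM in control, 19.9, 20.3 and 22.9 in OIM and 16.1, 14.7 and 15.8 in bFGF, with control and OIM overlapping and bFGF below both. It fell against OIM, at -0.44 ± 0.082 (edgeR adjusted p = 8.93e-05), and was called lower against control, at -0.52 ± 0.082 (edgeR adjusted p = 1.23e-05). That call was lost without control library 3 (-0.44), OIM library 2 (-0.50, just inside the limit) or bFGF library 2 (-0.48), and with library totals alone (-0.29). Control library 3 held the highest PTBP2 level of all 9. CELF2 had 76.7, 66.5 and 73.5 CPM in control, 66.3, 64.7 and 65.9 in OIM and 53.8, 52.6 and 53.8 in bFGF and fell in bFGF, at -0.30 ± 0.050 against OIM (edgeR adjusted p = 2.68e-05) and -0.43 ± 0.050 against control. With library totals alone the difference from OIM was -0.076 and did not pass (edgeR adjusted p = 0.215). Of its 100-base windows, 20.3% also occur in LOC110258135, so the split of reads between these rows is uncertain. MBNL1 had 343, 331 and 336 CPM in control, 348, 354 and 353 in OIM and 319, 311 and 315 in bFGF, and its log2 fold change of -0.16 ± 0.033 against OIM changed sign with library totals, to 0.062 against OIM, which did not pass, and to 0.13 against control, which passed as higher (edgeR adjusted p = 0.00269), whereas with TMM it was lower there, at -0.096 (edgeR adjusted p = 0.013).

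Ratios of related genes within a library do not depend on how libraries are scaled. Of 10 pairs, the bFGF libraries lay wholly outside the OIM libraries in 9 and wholly outside control in 9, while OIM and control were separated in 3. No such share was computed over other pairs of genes, and for single genes the shares of all genes whose groups do not overlap are those given above. With 3 libraries against 3, the exact two-sided permutation test cannot go below p = 0.1 (0.143 after Benjamini-Hochberg adjustment over the 30 tests), and every separated pair had that value, so none could pass 0.05. A log2 ratio combines 2 members described above and is no independent evidence of either.

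In 6 pairs the ratio was higher in bFGF. PTBP1 over PTBP2 was 15.7, 16.0 and 13.3 in control, 14.8, 15.3 and 13.2 in OIM and 21.0, 23.6 and 22.2 in bFGF libraries. CELF1 over CELF2 was 2.34, 2.65 and 2.41 in control, 2.89, 2.97 and 2.86 in OIM and 3.67, 3.81 and 3.70 in bFGF libraries, and MBNL1 over MBNL2 was 2.99, 2.80 and 2.90 in control, 3.25, 3.22 and 3.27 in OIM and 4.28, 3.94 and 3.91 in bFGF libraries. In both of these the groups stood in order, with OIM already above control. PAPOLA over PAPOLG was 7.63, 8.71 and 8.05 in control, 7.88, 8.16 and 7.82 in OIM and 9.89, 9.39 and 10.2 in bFGF libraries. SCAF4 over SCAF8 was 0.646, 0.652 and 0.664 in control, 0.637, 0.679 and 0.648 in OIM and 0.802, 0.752 and 0.760 in bFGF libraries, and HNRNPH1 over HNRNPF was 0.988, 0.951 and 0.955 in control, 0.991, 1.04 and 1.03 in OIM and 1.20, 1.15 and 1.21 in bFGF libraries. The last is the third pair in which OIM and control did not overlap. These ratios are of counts without correction for length, so a value of 1 does not mark equal levels. Per kilobase of merged exons, HNRNPH1 stood above HNRNPF already in control, at 71.1 against 48.2 CPM.

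In the other 3 separated pairs the ratio was lower in bFGF. SRSF3 over SRSF7 was 4.03, 4.35 and 4.20 in control, 4.24, 3.94 and 4.05 in OIM and 2.88, 2.94 and 2.80 in bFGF libraries, in which both genes rose and SRSF7 rose more. CPSF6 over CPSF7, the alternative partners in CFIm, was 1.82, 1.79 and 1.87 in control, 1.73, 1.82 and 1.77 in OIM and 1.44, 1.32 and 1.36 in bFGF libraries. PABPC1 over PABPC4 was 4.52, 4.31 and 4.51 in control, 4.41, 4.36 and 4.48 in OIM and 4.25, 4.09 and 3.95 in bFGF libraries, the smallest separated change of the 9 on the log2 scale, at -0.11. CSTF2 over CSTF2T, which rose together, overlapped in all comparisons with means of 0.744, 0.760 and 0.714 in control, OIM and bFGF.

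**Figure D5:**
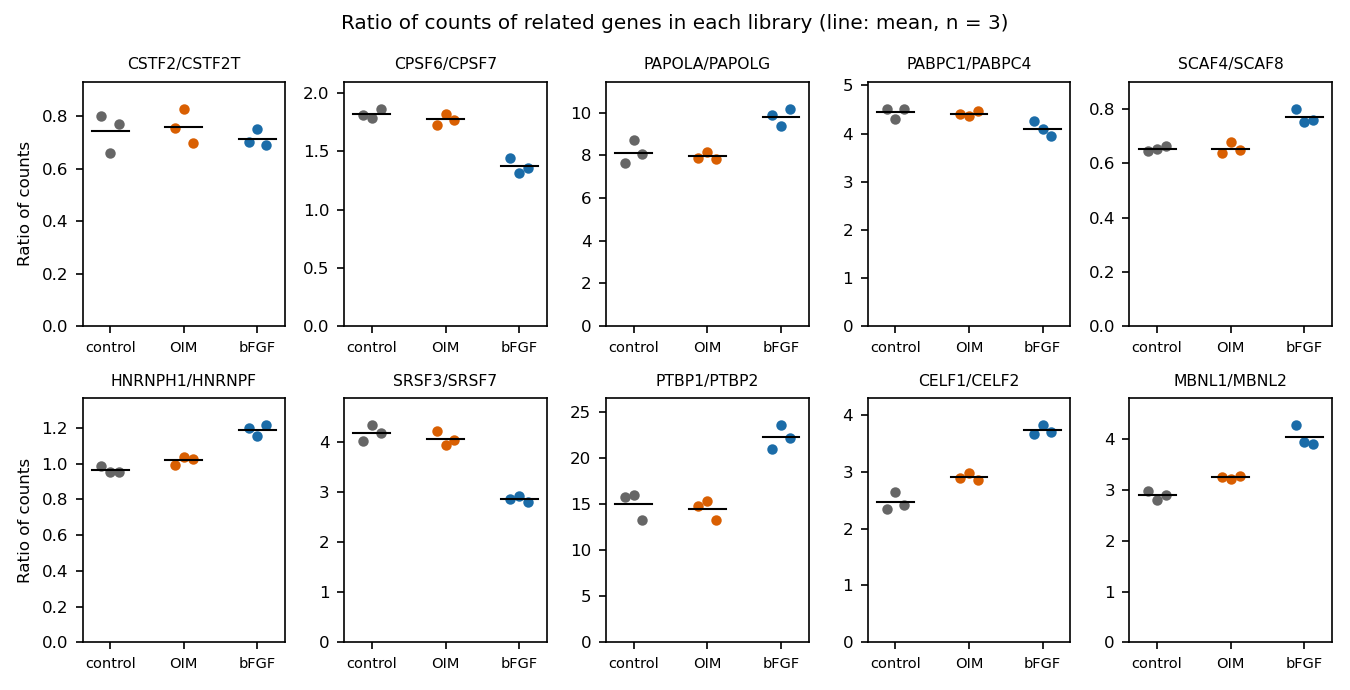
Ratio of the counts of 2 related genes in each library (points) with the group mean (line, n = 3) for 10 pairs, each axis from 0. The bFGF points are separate from the OIM points in every pair but CSTF2/CSTF2T, above them in 6 pairs and below them in SRSF3/SRSF7, CPSF6/CPSF7 and PABPC1/PABPC4.

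Promoter letters were compared because many members moved together with bFGF. In the 250 bases before and 50 after the annotated gene start (RefSeq, Sscrofa11.1), both strands were searched for CCGGAAGT (an ETS motif), TTTGGCGC and TTTCCCGC (E2F motifs), CCAAT (the CCAAT box), CACGTG (an E box) and TGACGTCA (a cyclic AMP response element). The ETS letters were found in 7 of 39 members (17.9%), beside 6.42% of 13638 promoters. These windows are shown because the ETS letters were the motif with the largest gap between members and all promoters. Each is printed on the strand of its gene with the motif in capitals, ACTTCCGG being the same letters read from the other strand.
CPSF3 (chr3:126905679-126905708, - strand): cgggtctccgaCCGGAAGTcgaagggagga
CPSF7 (chr2:10087527-10087556, + strand): gcggaccgtccACTTCCGGgaacttccggg
CSTF3 (chr2:27769390-27769419, + strand): cgcccactgccCCGGAAGTtaatgcgggaa
NUDT21 (chr6:29339845-29339874, + strand): gcttcgggttcACTTCCGGcgtacgtacgc
XRN2 (chr17:29107634-29107663, + strand): gccgtgacctcACTTCCGGtcgccggacgc
ELAVL1 (chr2:71206975-71207004, + strand): ggcggcgccagCCGGAAGTcccgcctccgc
CELF1 (chr2:15066512-15066541, + strand): ggtggtaggtgCCGGAAGTgccgccatttt
The CPSF7 window holds a second copy, in small letters, at its end. Of these 7 members 5 rose with bFGF against OIM and XRN2 and CELF1 did not pass, and 0 of 7 were called, beside 66.7% of all members and 33.8% of all genes that rose, and 17.9% and 17.7% called higher. CCAAT was found in 15 members (38.5%, against 35.6%), the E box in 5 (12.8%, against 9.16%), TTTCCCGC in CSTF3 and SCAF4 (5.13%, against 2.13%), TTTGGCGC in 0 (against 0.851%) and the cyclic AMP response element in CSTF3 (2.56%, against 2.90%). A match does not show binding, and annotated starts may differ from the starts used in these cells.

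Genes of neighbouring pathways were counted from 10 lists with 110 genes, 105 of them tested. For OIM against control 0 of the 105 were called by edgeR, with 10 higher and 7 lower at the adjusted p alone. For bFGF against OIM 15 were called higher (14.3%) and 4 lower (3.81%), beside 17.7% and 18.4% of all genes, and the counts below are to be read against these shares. Integrator, which ends non-coding and stalled transcripts, had 5 of 14 called higher and 0 lower, led by INTS11, its endonuclease and a relative of CPSF3 (0.74 ± 0.064, SE, log2), and INTS7 (0.73 ± 0.056). Histone mRNA 3′ end processing had 3 of 6 called higher, with ERI1 at 0.59 ± 0.098 and LSM10 at 0.56 ± 0.16. Among the 3 U1 snRNP proteins, SNRPA (1.28 ± 0.11) and SNRPC (0.55 ± 0.067) were called higher. U1 is known to shield transcripts from early poly-A sites. Other RNA-binding regulators had 4 of 31 called higher, with HNRNPA1 at 0.79 ± 0.038, and 1 lower, ZFP36, a protein that hastens mRNA decay, at -0.83 ± 0.086. Among the 6 SR protein kinases SRPK1 was called higher (0.57 ± 0.041), and 4 of the 6 fell at the adjusted p alone.

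The deadenylase list holds enzymes that shorten tails and proteins that join or recruit them, and other nucleotidyl transferases add bases to RNA 3′ ends. Neither list had a call higher for bFGF against OIM. The deadenylase list had 0 of 18 called higher and 1 lower, BTG2, an activator of deadenylation, at -0.74 ± 0.052. At the adjusted p alone it had 5 higher and 5 lower. Other nucleotidyl transferases had 0 of 9 called higher and 2 lower, FAM46C (now TENT5C) at -2.28 ± 0.22 and FAM46A (now TENT5A) at -0.62 ± 0.047, both of them cytoplasmic poly-A polymerases, with 2 higher and 4 lower at the adjusted p alone. Against control 1 gene of each list was called higher, PAN2 (0.53 ± 0.050), a deadenylase, and PAPD7 (0.54 ± 0.044), a transferase. FAM46C was scarce, at a mean of 2.98 ± 0.50 CPM in OIM and 0.609 ± 0.0619 in bFGF (SD, n = 3). The CPSF-linked phosphatase module (5 genes), the PAF1 complex with CDK12 (8 genes) and nuclear poly-A RNA decay (5 genes) had 0 called in either direction, with 2 higher and 2 lower, 1 higher and 2 lower, and 2 higher and 2 lower at the adjusted p alone.

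Circular RNAs inside member genes were sparse. The table held 6179 circRNAs, of which 31 lay within 13 of the member genes and 29 of those had both ends at annotated exon ends. They gave 666 counts over all 9 libraries, no circRNA of the table held exactly 1 count, and the lowest value above 0 was 2, so a 0 may hide a single read. Only 3 had enough counts to be tested among 165 circRNAs. The NUDT21 circRNA (chr6:29344146-29357287) had 0, 25 and 19 counts in control, 28, 26 and 30 in OIM and 15, 22 and 37 in bFGF. The WDR33 circRNA (chr15:59562524-59570339) had 20, 11 and 18, then 5, 11 and 10, then 7, 9 and 19 counts. The FIP1L1 circRNA (chr8:40180318-40215963) had 10, 4 and 6, then 4, 7 and 16, then 5, 8 and 11 counts. Without scaling, the NUDT21 circRNA had more counts in each OIM library than in any control library, one of which held 0. The nearest values were 25 in control library 2 and 26 in OIM library 2, with 64723837 and 67371523 total gene counts. Scaled to library size, these groups overlapped. The other groups overlapped or met in unscaled counts. With edgeR's quasi-likelihood test at the adjusted p alone, without a fold limit, 0 of the 3 passed in any comparison. Of all 165, 0, 0 and 3 passed for OIM against control, bFGF against OIM and bFGF against control. At an unadjusted p of 0.05 there were 0 of the 3, beside 5, 15 and 21 of 165 in the same order. At counts this low only large differences would be detectable.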

How the data were processed

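RNA from PVICs was measured in 9 libraries of 3 groups, grouped by the treatment in the labels. Per the labels, libraries were made from total RNA with a stranded ribosomal RNA removal kit, and the submitters' processing notes name Trimmomatic, HISAT2, StringTie and the build Sscrofa11.1, whereas the study's methods describe poly-A selection, other trimming and alignment tools and a shorter treatment, so which applies is not settled here. The counting program and its strand setting are not given in the sources used here. The values are expected counts deposited by the authors in 1 table of genes, non-coding transcripts and circRNAs, and the gene and circRNA values are whole numbers. The table's 19 unnamed empty columns were not used. Gene counts were filtered (filterByExpr), scaled by TMM and tested with edgeR 4.0.16 in R 4.3.3, using the quasi-likelihood test with all 9 libraries in 1 fit, 6 residual degrees of freedom and Benjamini-Hochberg adjustment over 13662 genes. The limits for a call were 0.05 for the adjusted p and 0.5 for the size of the log2 fold change. The code was tested on simulated data. CPM used TMM-scaled library sizes, and lengths were merged exons of the RefSeq annotation. Ratios of paralogues were compared with exact two-sided permutation tests. Intervals are 95%. circRNAs were tested with the same method, using the library sizes and TMM factors of the genes. Their adjustment ran over 165 circRNAs, with no fold limit. Alternatives were size factors by median of ratios, library totals, a stricter count filter, DESeq2 1.42.0, other fold limits, a replicate block, fits of 2 groups and leaving out each library. Replicates of a group differed beyond sampling noise, so each library was kept as 1 replicate. Libraries with the same number did not deviate together (correlations -0.052 to 0.039), so the main fit used no pairing. This does not show whether they shared a culture or batch. All 9-library values are printed for members called in any comparison, for the members highest and lowest per length and for pairs whose ratio was separated in 2 comparisons, and the 2 most changed genes called are named from each other list. The members and lists were chosen with earlier results of these data known.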

Additional observations from a re-analysis of the deposited data

How the results depend on the processing

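Over all alternatives, 249 recomputed values were labelled the same and 15 counts moved. These values were counts of members or circRNAs that passed, and log2 ratios of separated pairs with 1 library left out. A ratio was labelled the same if its sign held, which a separated pair fixes in advance. Among medians and single genes past the adjusted p, 1079 values were labelled the same. For genes 29 values gained a call, 7 lost one and 2 reversed, and 3 medians moved. Genes labelled the same kept their direction and whether they were called. Medians labelled the same moved less than the spread between libraries, whatever their sign. The OIM against control median was -0.0013 in the main fit and 0.0054 with DESeq2. No member was called for OIM against control under any alternative that kept the fold limit. Without the fold limit the counts were 4 higher and 1 lower for OIM against control, 26 and 5 for bFGF against OIM, and 26 and 5 for bFGF against control. With the fold limit raised to 1 on the log2 scale they were 0 higher against OIM, and 1 higher and 0 lower against control. With library totals alone, which moved the median of all genes by 0.22, 19 were higher against OIM and 18 higher and 0 lower against control, and MBNL1 reversed to 0.062 (bFGF against OIM) and 0.13 (bFGF against control). Leaving out 1 library gave 7 to 8 higher against OIM (8 without OIM replicate 2), and 7 to 10 higher and 1 to 2 lower against control (1 lower without control replicate 3, OIM replicate 2 or bFGF replicate 2). The cause of these moves was not tested beyond their construction. With the replicate number as a block, the members called were again 0 and 0, 7 and 0, and 8 and 2. Genes called in all for bFGF against OIM were then 4917 instead of 4939. Depth limits the circRNAs, of which 8 of the 31 in member genes had at most 3 counts in all libraries together.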
